A study of Mus musculus with 8 samples.

Results

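The receptor of calcitonin gene-related peptide and adrenomedullin was followed through 5 transcripts, those of the receptor core (Calcrl), its partner proteins (Ramp1, Ramp2 and Ramp3) and a ligand (Adm). They were taken by gene identifier from a table of read counts, where each was found once among 46603 genes. RNA had been sequenced from 8 libraries of liver cells sorted from 4 mice named JV602, JV621, JV624 and JV6314, and each mouse gave a library of EGFP-positive cells and a library of EGFP-negative cells. All mice carried R26rtTA and H2B-EGFP in the heterozygous state on a mixed C57BL/6 and CBA background, were given doxycycline up to postnatal day 5 and were analyzed at 8 weeks of age, so the transgenes and the drug are shared by both groups. The histone-bound EGFP is diluted as cells divide. EGFP-positive cells are called liver label-retaining cells (LLRCs), those without EGFP are called non-LRC cells, and both were sorted as EpCAM-positive and CD45-negative, after CD45-bearing cells had been depleted on beads. The transactivator sits in the Rosa26 locus, which is active in all tissues, so the label by itself marks no cell type. The study also states that hematopoietic cells of such mice can express the transgene without the drug. The question here was whether the receptor, its partners and its ligand differed between the cells that kept and the cells that had lost the label.

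Calcrl (calcitonin receptor-like receptor) is a G protein-coupled receptor of the secretin family that works only in a complex with a receptor activity-modifying protein (RAMP), a small membrane protein that takes the receptor to the cell surface and sets its ligand. With Ramp1 the complex is the receptor of calcitonin gene-related peptide, and with Ramp2 or Ramp3 it is a receptor of adrenomedullin, the product of Adm. The complexes act mainly through the stimulatory G protein and cyclic AMP, and adrenomedullin acting through Calcrl and Ramp2 is known for its part in blood and lymphatic vessel formation and in the barrier of the endothelium. Adm itself is made by many cell types and is induced by low oxygen.

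The libraries held 7860021 to 9851819 counts in LLRCs against 4670132 to 8056103 in non-LRC cells, with 14234 to 20430 genes detected. Levels are counts scaled to a common library size by TMM (CPM), and 3 counts correspond to 0.291 to 0.626 CPM in these libraries. Markers of bile duct epithelium were read in both groups, and all 15 of that list passed the filter on low counts, with a median log2 difference of 0.31. A pair of non-LRC libraries stood apart. The non-LRC library of JV621 held 0 counts for 257 of the 6427 genes that had at least 50 counts in each of the other 7 libraries, and that of JV6314 held 0 counts for 34 of 5721 such genes, while this number was 4 in the non-LRC library of JV624 and 0 in the other 5. The non-LRC library of JV6314 also held 1890 CPM of 8 pancreatic acinar markers, against 2.13 to 23.5 CPM elsewhere. Differences are therefore also given without these 2 libraries. In bulk RNA, fewer cells of a type and less RNA per cell cannot be told apart.

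Upstream sequence was compared for Calcrl and Ramp3, which were lower in every LLRC library than in any non-LRC library, and for Ramp1, whose groups overlapped. The sequences come from a set of RefSeq promoter windows for GRCm38.p6. The set at hand held windows for 4 of the 5 members and not for Ramp2, whose upstream sequence was therefore not examined. The stretches end at the base before the annotated gene start, are read 5′ to 3′ on the strand of the gene, and have the core of ETS factor sites in capitals (GGAA, or TTCC where it lies on the other strand), since ETS factors are known for binding near many endothelial genes. The Calcrl stretch is chr2:84425412-84425516 on the minus strand, that of Ramp3 is chr11:6658283-6658520 on the plus strand, and that of Ramp1 is chr1:91179572-91179821 on the plus strand.
Calcrl: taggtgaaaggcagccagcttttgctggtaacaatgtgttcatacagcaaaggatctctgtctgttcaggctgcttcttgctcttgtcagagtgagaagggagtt
Ramp3: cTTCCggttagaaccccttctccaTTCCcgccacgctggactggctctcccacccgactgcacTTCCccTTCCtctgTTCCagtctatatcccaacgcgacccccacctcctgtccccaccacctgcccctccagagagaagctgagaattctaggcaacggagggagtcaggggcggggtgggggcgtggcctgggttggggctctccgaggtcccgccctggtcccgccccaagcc
Ramp1: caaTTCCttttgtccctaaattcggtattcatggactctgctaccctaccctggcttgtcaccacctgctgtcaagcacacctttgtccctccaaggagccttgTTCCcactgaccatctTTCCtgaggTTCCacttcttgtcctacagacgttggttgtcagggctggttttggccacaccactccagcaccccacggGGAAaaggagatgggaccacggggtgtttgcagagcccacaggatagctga
The 105 bases before Calcrl held 0 matches to the ETS core, while the 238 bases before Ramp3 and the 250 bases before Ramp1 held 5 each. In the whole windows of 300 bases, which run past the gene start, there were 3 matches for Calcrl, 5 for Ramp3, 6 for Ramp1 and 2 for Adm. These letters are common, as 96.0% of 32851 promoter windows held at least 1 match, with a median of 3. The letters ACGTG (either strand), which are a form of the core of the hypoxia response element and the only form searched, were found in none of the 4 windows and in 19.6% of all windows. The cyclic AMP response half-site (TGACG, either strand) was found once, in the Ramp1 window, and in 20.8% of all windows. A match to so few letters describes the sequence and shows no binding.

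The Calcrl transcript was low in LLRCs and abundant in non-LRC cells of every mouse. Calcrl (chromosome 2, 84330626 to 84425411, minus strand, GRCm38) was counted 42, 155, 96 and 168 times in LLRCs, with the mice here and below taken as JV602, JV621, JV624 and JV6314, which makes 4.07, 18.3, 14.1 and 18.7 CPM. The non-LRC libraries had 689, 970, 870 and 774 counts, or 86.3, 202.6, 137.3 and 152.7 CPM. The highest LLRC library thus lay below the lowest non-LRC library, and JV602 was the lowest mouse in both groups. The LLRC mean was 13.8 ± 6.80 CPM and the non-LRC mean 144.7 ± 47.9 CPM (SD, n = 4), a log2 difference of -3.39 (standard error 0.52, 95% interval -4.56 to -2.22), or 10.5-fold lower in LLRCs. Within mice the log2 difference was -4.25 in JV602, -3.43 in JV621, -3.24 in JV624 and -3.00 in JV6314. In edgeR's quasi-likelihood test Calcrl had an adjusted p of 0.0809 and so did not pass the threshold of 0.05, with 17 genes sharing this value, below which no gene went. The exact permutation test (two-sided, 4 libraries against 4) gave p = 0.029, the smallest that this design allows. Libraries were reassigned freely in that test, and reassigning them only within mice could not give a p below 0.125 for any member. Without the non-LRC libraries of JV621 and JV6314 the log2 difference was -3.01.

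**Figure D1:**
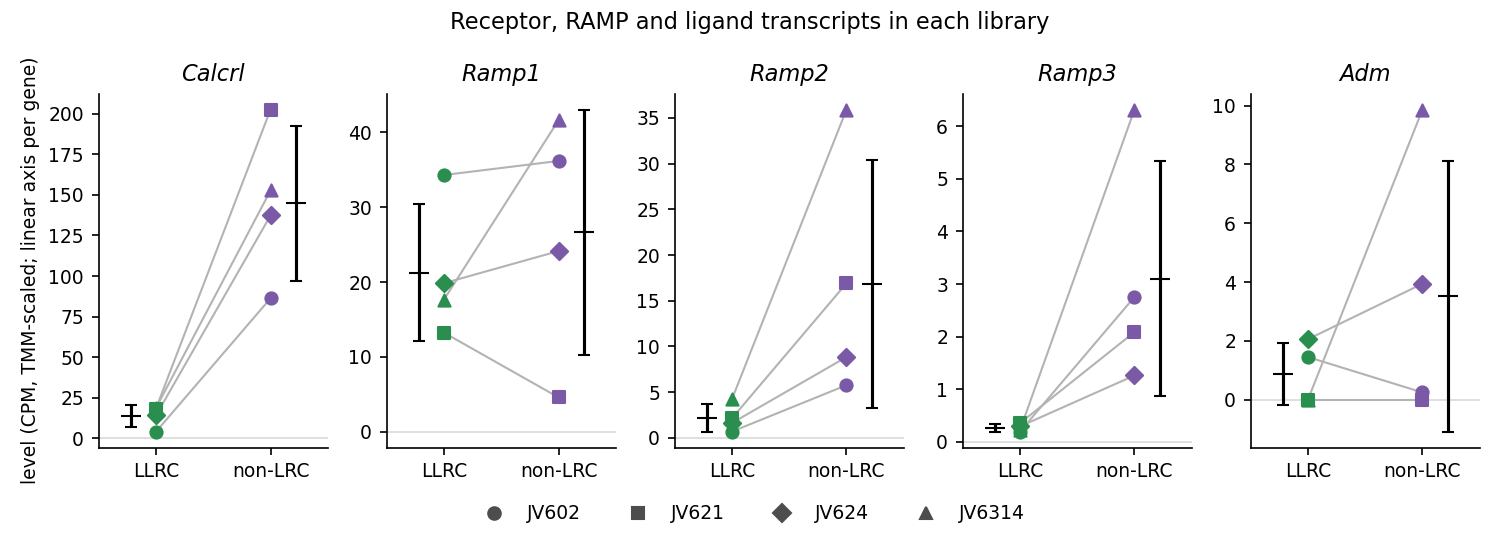
Level of each of the 5 transcripts in CPM (linear axis, 1 scale per gene) in LLRC (green) and non-LRC (purple) libraries. Lines join the 2 libraries of a mouse, symbols mark the mouse, and the bars beside the points give the mean and SD (n = 4). For Calcrl, Ramp2 and Ramp3 all 4 LLRC points lie below all 4 non-LRC points, while for Ramp1 and Adm the groups overlap.

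The RAMPs of the adrenomedullin receptors, Ramp2 and Ramp3, followed the receptor core at lower levels. Ramp2 (chromosome 11, 101246028 to 101259546, plus strand) had 7, 18, 11 and 38 counts in LLRCs, or 0.679, 2.13, 1.62 and 4.22 CPM. In non-LRC cells it had 46, 81, 56 and 182 counts, or 5.76, 16.9, 8.84 and 35.9 CPM. JV6314 was the highest mouse in both groups, and its LLRC library still lay below the lowest non-LRC library. The means were 2.16 ± 1.5 CPM and 16.9 ± 13.5 CPM (SD, n = 4), with a log2 difference of -2.95 (standard error 0.77, 95% interval -4.70 to -1.21), or 7.74-fold lower in LLRCs. The difference was alike in the 4 mice, at -2.41, -2.73, -2.14 and -2.95. The adjusted p was 0.369 in edgeR's quasi-likelihood test, and the exact permutation p was again the smallest possible, 0.029. With 7 counts in the LLRC library of JV602, Ramp2 would not have passed the filter on low counts by its LLRC libraries alone. Its fitted values therefore describe it and are not support for a difference. The non-LRC mean was 10.5 CPM without JV6314, and with the non-LRC libraries of JV621 and JV6314 left out the log2 difference was -1.73. Annotated exons of Ramp2 share 33.4% of their bases with Vps25 on the same strand, and Vps25 itself had 0 to 20 counts per library, so part of the reads of Ramp2 may have been left uncounted as ambiguous.

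Ramp3 (chromosome 11, 6658521 to 6677475, plus strand) was close to the limit of detection in LLRCs, with 2, 3, 2 and 2 counts, or 0.194, 0.355, 0.294 and 0.222 CPM. The non-LRC libraries had 22, 10, 8 and 32 counts, or 2.76, 2.09, 1.26 and 6.31 CPM. Every non-LRC library thus held more Ramp3 than any LLRC library. The gene passed the filter on low counts only through its non-LRC libraries, which ties its place among the tested genes to the difference, so its counts describe it and its fitted values are not support for a difference. The means were 0.266 ± 0.0726 CPM and 3.11 ± 2.22 CPM (SD, n = 4). Summed over libraries, 72 counts stood against 9, a rate 11.4 times as high in non-LRC cells with a counting interval (95%) of 5.70 to 26, which covers counting error only. The fitted log2 difference was -3.47 (standard error 0.71, 95% interval -5.07 to -1.86, adjusted p = 0.158 in edgeR's quasi-likelihood test) and rests on these few reads. The mouse values were -2.23, -1.60, -1.15 and -3.24. The non-LRC mean was 2.04 CPM without JV6314, and the log2 difference was -2.85 without the 2 non-LRC libraries that stood apart. Exons of Ramp3 share 7.32% of their bases with Gm11978 on the opposite strand, and counting without strand cannot assign reads there.

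Ramp1, the partner that makes the receptor for calcitonin gene-related peptide, was read in all libraries at levels that overlapped between the groups. Ramp1 (chromosome 1, 91179822 to 91225196, plus strand) had 354, 112, 135 and 159 counts in LLRCs, or 34.3, 13.2, 19.9 and 17.7 CPM. The non-LRC counts were 289, 22, 153 and 211, or 36.2, 4.59, 24.2 and 41.6 CPM. The groups overlapped, and both the lowest and the highest of the 8 values were non-LRC libraries, JV621 and JV6314. The means were 21.3 ± 9.12 CPM and 26.6 ± 16.4 CPM (SD, n = 4), with a log2 difference of -0.33 (standard error 0.61, adjusted p = 0.9999 in edgeR's quasi-likelihood test, exact permutation p = 0.971). The 95% interval of -1.71 to 1.06 leaves room for a difference in either direction. The mice were split, at -0.08, 1.43, -0.28 and -1.21. With the non-LRC libraries of JV621 and JV6314 left out, the log2 difference was -0.49.

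Adm, which encodes the ligand adrenomedullin, was read in few counts and unevenly between mice. Adm (chromosome 7, 110627661 to 110629820, plus strand) had 15, 0, 14 and 0 counts in LLRCs, or 1.45, 0, 2.06 and 0 CPM. In non-LRC cells it had 2, 0, 25 and 50 counts, or 0.250, 0, 3.95 and 9.87 CPM. JV621 had no read in either library, where 3 counts would be 0.355 CPM in the LLRC and 0.626 CPM in the non-LRC library, and the groups overlapped. The means were 0.878 ± 1.04 CPM and 3.52 ± 4.60 CPM (SD, n = 4), a log2 difference of -1.99 with a standard error of 1.64 and a 95% interval of -5.69 to 1.72 (adjusted p = 0.9999 in edgeR's quasi-likelihood test, exact permutation p = 0.457). The non-LRC mean was 1.40 CPM without JV6314, and the LLRC mean was 0.485 CPM without JV624. With the non-LRC libraries of JV621 and JV6314 left out, the log2 difference was -1.23.

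**Figure D2:**
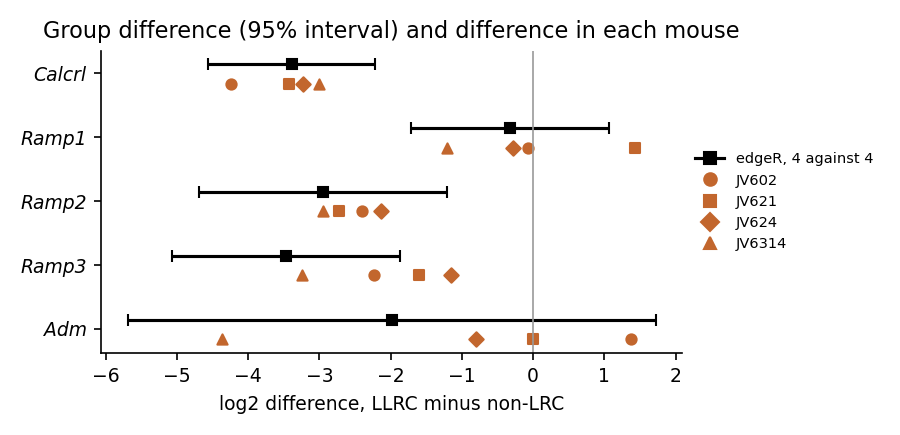
Log2 difference of LLRC minus non-LRC for each transcript. Black squares and bars give edgeR's estimate with its 95% interval over 4 libraries against 4, and orange symbols give the difference within each mouse on log2(CPM + 0.5). The intervals of Calcrl and Ramp2 lie wholly below 0 with all 4 mice on the same side, and those of Ramp1 and Adm include 0. Those of Ramp2 and Ramp3 are drawn as a description, since neither gene would have passed the filter by its LLRC libraries alone.

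Across the set, 0 of the 5 members passed the adjusted threshold in edgeR's quasi-likelihood test, and the same held for 0% of the 13605 genes tested. Ramp3 is left out of the counts that follow, since it entered the test only through the group in which it is high. Ramp2 is kept in them, though it would not have passed the filter by its LLRC libraries alone. Its part in the counts and calls below is thus description and not support for a difference. Of the 4 members other than Ramp3, Calcrl and Ramp2 had an unadjusted p below 0.05 with a lower level in LLRCs, as had 3.56% of all genes tested. Both had all 4 LLRC libraries beneath all 4 non-LRC libraries, as had 1.91% of all genes, and both were lower in the LLRC library of all 4 mice, as were 5.53%. In the opposite direction 0 members were found by any of these rules, against 1.6% of genes by the unadjusted p, 2.15% by groups that did not overlap and 7.74% by all 4 mice. The median log2 difference over all genes tested was -0.01. The tests disagreed on Calcrl and Ramp2. By its Wald test DESeq2 called Calcrl (adjusted p = 5.42e-08) and Ramp2 (0.00716), with 1.29% of 13385 genes called lower in LLRCs. edgeR's exact test also called both, with adjusted p of 1.82e-06 for Calcrl and 0.0403 for Ramp2, and 0.904% of genes called lower. Without the filter on low counts the exact test called Calcrl alone among the members (adjusted p = 1.78e-05), with 0.323% of genes called lower. limma with sample quality weights called 0% of genes, and the adjusted p of Calcrl was 0.0837.

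The libraries of a mouse come from the same liver, and with the mouse as a block the quasi-likelihood test called 0% of genes. The blocked log2 difference was -3.53 for Calcrl (standard error 0.36, adjusted p = 0.194 in edgeR), -2.89 for Ramp2 (standard error 0.49, adjusted p = 0.293 in edgeR) and -3.26 for Ramp3 (standard error 0.83, adjusted p = 0.693 in edgeR). It was -0.05 for Ramp1 and -1.26 for Adm, both with an adjusted p of 1. DESeq2 with the mouse as a block called Calcrl (adjusted p = 4.58e-15) and Ramp2 (1.07e-05), with 1.53% of genes called lower.

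**Figure D3:**
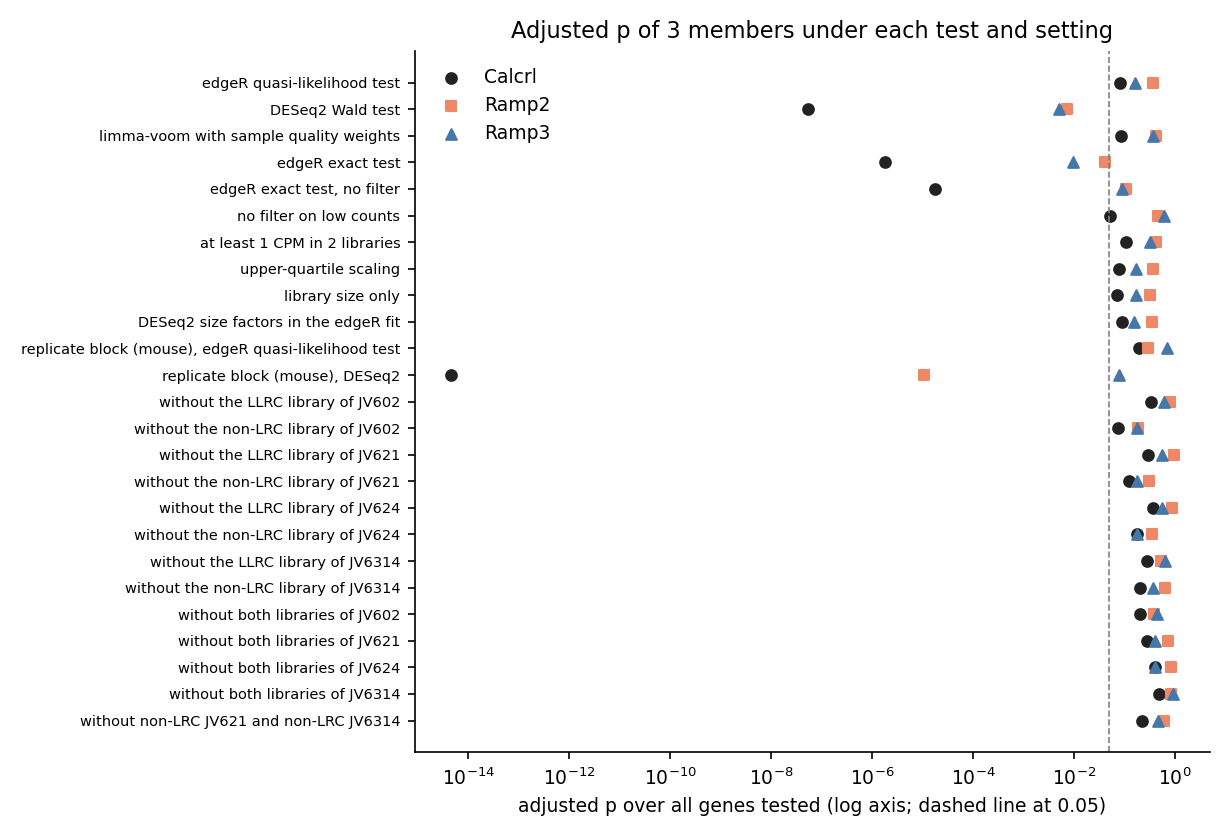
Adjusted p over all genes tested (log axis, dashed line at 0.05) for Calcrl, Ramp2 and Ramp3 under each test and setting, 1 line per setting. Points left of the line appear under DESeq2 and edgeR's exact test, and every point of edgeR's quasi-likelihood test and of limma lies to its right, including those with libraries left out. Neither Ramp2 nor Ramp3 would have passed the filter on low counts by its LLRC libraries alone.

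Levels of different genes were compared per kilobase of annotated exon. In LLRCs Ramp1 was the highest at 7.04 ± 3.02 CPM per kb, followed by Calcrl at 2.83 ± 1.39, Ramp2 at 0.655 ± 0.454, Adm at 0.542 and Ramp3 at 0.193 CPM per kb (SD, n = 4). In non-LRC cells Calcrl was the highest at 29.6 ± 9.81 CPM per kb, followed by Ramp1 at 8.82 ± 5.43, Ramp2 at 5.11 ± 4.10, Ramp3 at 2.25 and Adm at 2.17 CPM per kb. Ramp1 exceeded Calcrl in the LLRC library of all 4 mice, and Calcrl exceeded Ramp1 in the non-LRC library of all 4. In both groups the ranges of these leading genes did not overlap. Each further pair of neighbours in the order overlapped over the 4 libraries of the group, Calcrl and Ramp2 in LLRCs included.

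The make-up of the RAMP transcripts was described in the same unit, a quantity chosen after its values had been seen and given without a test. Ramp1 made up 97.0%, 82.9%, 90.3% and 80.2% of the summed RAMP level in the LLRC libraries, in the order JV602, JV621, JV624 and JV6314, and 76.2%, 18.6%, 69.0% and 47.1% in the non-LRC libraries. Ramp2 made up 1.76%, 12.2%, 6.74% and 17.6% in LLRCs against 11.1%, 62.8%, 23.1% and 37.2% in non-LRC cells. Ramp3 ranged from 1.20% to 4.86% in LLRCs and from 7.90% to 18.6% in non-LRC cells. The ranges of Ramp1 and of Ramp3 did not overlap between the groups, those of Ramp2 did, and the share of Ramp2 was higher in the non-LRC library of every mouse. Since these are shares of a sum, they are tied to the differences of Ramp2 and Ramp3 given above. With the bases that Ramp2 shares with Vps25 and the like left out of the lengths, its mean share was 13.4% in LLRCs against 41.0% in non-LRC cells, against 9.56% and 33.6% with them. Calcrl per summed RAMP level was 0.0713, 0.710, 0.398 and 0.525 in LLRCs against 1.12, 5.09, 2.43 and 1.07 in non-LRC cells, so that Calcrl was below the RAMP sum in each LLRC library and above it in each non-LRC library. With the unshared lengths this ratio was 0.892 in the non-LRC library of JV6314, below 1, while it stayed above 1 in the other 3 non-LRC libraries and below 1 in all 4 LLRC libraries.

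**Figure D4:**
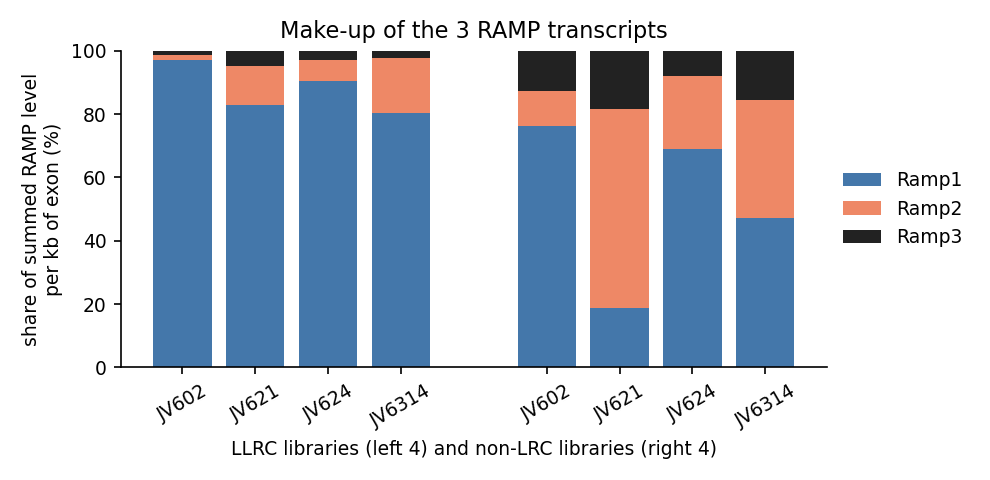
Share of Ramp1, Ramp2 and Ramp3 in the summed RAMP level (CPM per kb of exon, in percent) in each library, with the LLRC libraries on the left and the non-LRC libraries on the right. Ramp1 takes between 80.2% and 97.0% of each LLRC bar and between 18.6% and 76.2% of each non-LRC bar.

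The other peptides and receptors of the family ranged from 0 to 219 counts per library. Of 8 genes listed, 4 passed the filter, 0 were called, and 2 had an unadjusted p below 0.05. Both were lower in LLRCs, beside 3.56% of all genes tested. Gpr182, an atypical receptor of sinusoidal endothelium once taken for an adrenomedullin receptor, had 63, 61, 33 and 72 counts in LLRCs against 98, 179, 146 and 130 in non-LRC cells. Its levels did not overlap between the groups (6.54 ± 1.37 against 24.6 ± 10.3 CPM, SD, n = 4), and its log2 difference was -1.91 (standard error 0.44, adjusted p = 0.251 in edgeR's quasi-likelihood test). Ackr3, a scavenger that can take up adrenomedullin, had 10, 44, 3 and 34 counts in LLRCs against 90, 21, 219 and 134 in non-LRC cells, which overlapped, with a log2 difference of -2.87 (standard error 0.90, adjusted p = 0.589 in edgeR). Ackr3 would not have passed the filter by its LLRC libraries alone, so its test is not support for a difference. Calcb, which encodes the beta form of calcitonin gene-related peptide, was read in 5 of the 8 libraries and unevenly, with 0, 29, 0 and 43 counts in LLRCs against 1, 0, 157 and 12 in non-LRC cells. Calca, which encodes calcitonin and the alpha form of the peptide, had 0 counts in LLRCs and at most 2 in a non-LRC library. The calcitonin receptor Calcr had 10 counts in the non-LRC library of JV6314 and 0 in the other 7, and Iapp, which encodes amylin, had 0 in all 8. Crcp, whose product couples the receptor to its signal, had 160, 124, 92 and 217 counts in LLRCs against 147, 0, 120 and 122 in non-LRC cells, with a log2 difference of 0.14 and its 0 in the non-LRC library of JV621, 1 of the libraries that stood apart.

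Among 9 genes of peptide processing and clearance, 7 were tested. An unadjusted p below 0.05 was found for 3, all of them lower in LLRCs with no overlap between the groups. Over all genes tested, 3.56% were lower in LLRCs at that p, and 1.91% were lower with groups that did not overlap. The median log2 difference of the 7 was -0.99. Pam, the enzyme that amidates the ends of adrenomedullin and calcitonin gene-related peptide, had 40.9 ± 10.7 CPM in LLRCs against 91.9 ± 31.0 CPM in non-LRC cells (n = 4 each, SD), with a log2 difference of -1.17 (standard error 0.35, adjusted p = 0.551 in edgeR). Ece1, an endothelin-converting peptidase, had 62.7 ± 12.0 CPM against 124.3 ± 37.6 CPM, a log2 difference of -0.99 (standard error 0.29, adjusted p = 0.546). The peptidases Mme and Ide and the proprotein convertase Furin had log2 differences of 0.05, -0.19 and -0.45, and Ide had 0 counts in the non-LRC library of JV621.

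Genes of the cyclic AMP route below the receptor went both ways. Of 24 found among the counted genes, 18 were tested, with log2 differences from -5.38 to 1.32, a median of -0.05 and 10 of them negative. At an unadjusted p below 0.05 there was 1 gene, lower in LLRCs, beside 3.56% of all genes tested. The regulatory subunits of protein kinase A encoded by Prkar1a and Prkar2a had log2 differences of -0.07 and 0.00, and the catalytic subunit Prkacb had 0.33. The transcription factor gene Creb1 had -0.04, and the phosphodiesterases Pde4b and Pde3b had 0.61 and -0.52. Named after their values had been seen, Prkar2b, a further regulatory subunit, had 1.32 (standard error 1.11) and was higher in the LLRC library of all 4 mice, with 0 counts in the non-LRC library of JV621. Rapgef4, a cyclic AMP sensor, had -1.21 (standard error 0.93) and the phosphodiesterase Pde3a -1.16 (standard error 1.59). The gene at an unadjusted p below 0.05 was Adcy4, an adenylyl cyclase, also named after its values had been seen. It had 0, 3, 1 and 1 counts in LLRCs against 21, 54, 22 and 53 in non-LRC cells. Like Ramp3, it passed the filter only through its non-LRC libraries, so its test is not support for a difference, and it is also in the study's own gene table. The stimulatory G protein gene Gnas had 1 to 9 counts per library, and 22% of its exon bases overlap genes on the opposite strand, so its level was not read. Of 8 genes of receptor desensitisation 7 were tested, with a median of -0.20. At an unadjusted p below 0.05 there were 0, beside 3.56% of all genes lower and 1.6% higher in LLRCs. The arrestins Arrb1 and Arrb2 had log2 differences of -0.86 and 0.09.

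Most other receptors of the secretin family were low in counts. Of 13, 4 passed the filter, with a median log2 difference of -2.65. Sctr, the secretin receptor of bile ducts, had 45, 25, 20 and 12 counts in LLRCs against 21, 10, 3 and 15 in non-LRC cells, a log2 difference of 0.51 (standard error 0.67). Those of Pth1r and Vipr1, the receptors of parathyroid hormone and of vasoactive intestinal peptide, were -3.49 (standard error 1.14, adjusted p = 0.681 in edgeR) and -2.95 (standard error 1.07, adjusted p = 0.790 in edgeR). Gcgr, the glucagon receptor, had -2.34 (standard error 1.21). By their LLRC libraries alone Pth1r, Vipr1 and Gcgr would not have passed the filter. Their values and the median of the list are thus description and not support for a difference. Of 12 hypoxia-inducible genes, a class to which Adm belongs, 11 were tested, with a median of -0.20. At an unadjusted p below 0.05, 0 were lower and 1 was higher in LLRCs, beside 3.56% and 1.6% of all genes tested. Vegfa, Ldha and Bnip3 had log2 differences of 0.37, -0.48 and 0.23.

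Endothelial markers differed in the same direction as Calcrl, Ramp2 and Ramp3. Of 20 endothelial markers, 17 passed the filter, with a median log2 difference of -3.73, and 15 of them had an unadjusted p below 0.05, all lower in LLRCs, beside 3.56% of all genes tested. For 13 the groups did not overlap, beside 1.91% of all genes. Some of the markers, such as Cldn5, Robo4 and Sox17 with at most 14, 11 and 21 counts in an LLRC library, passed the filter through their non-LRC libraries, so these counts describe the list and are not support for a difference. Several of these markers are in the study's own gene table, which was drawn from these libraries, so the list is not independent evidence of its direction. Summed, the 20 markers stood at 53.9, 98.2, 74.4 and 62.3 CPM in LLRCs and at 294.8, 1261, 722.9 and 786.3 CPM in non-LRC cells. None of the 20 was at 0 in all libraries. Kdr, a receptor of vascular endothelial growth factor, and Tek, the receptor of angiopoietins, had log2 differences of -3.78 (standard error 0.58) and -3.69 (standard error 0.45). Of 10 sinusoidal markers, 9 were tested, and all 9 had groups that did not overlap, beside 1.91% of all genes. Stab1 (at most 9 counts in an LLRC library) and Stab2 (29, 25, 2 and 8 counts in LLRCs) passed the filter only through their non-LRC libraries. The count of 9 thus describes the list and is not support for a difference. The median of the 9 was -3.25, and the list summed to 113.2 to 176.6 CPM in LLRCs against 621.9 to 2492 CPM in non-LRC cells. Among the 9 were the scavenger receptor Mrc1 at -5.28 (standard error 0.66) and the nuclease Dnase1l3 at -3.30 (standard error 0.75). Of 6 lymphatic markers 4 were tested, with a median of -0.43. Flt4, which encodes a receptor of lymphatic growth factors, had 79, 46, 54 and 107 counts in LLRCs against 100, 154, 140 and 129 in non-LRC cells, with a log2 difference of -1.48 (standard error 0.43, adjusted p = 0.519 in edgeR) and CPM levels that did not overlap. Pdpn had -1.19 (standard error 0.60), and Prox1 and Reln, which liver cells of other kinds also express, had 0.32 each and made up most of the summed level of 395.6 to 543.6 CPM. Ccl21a and Mmrn1 had 0 counts in all 8 libraries. The part of endothelial RNA in the differences of Calcrl, Ramp2 and Ramp3 was not tested.

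As a share of the endothelial sum, Calcrl and Ramp2 overlapped between the groups. Calcrl came to 7.55%, 18.7%, 19.0% and 29.9% of that sum in the LLRC libraries and to 29.3%, 16.1%, 19.0% and 19.4% in the non-LRC libraries, where the lowest and the highest values were JV621 and JV602. Ramp2 came to 1.26%, 2.17%, 2.17% and 6.77% in LLRCs and to 1.95%, 1.34%, 1.22% and 4.57% in non-LRC cells, with JV6314 the highest in both. Ramp3 was between 0.357% and 0.395% in LLRCs, on 2 or 3 counts each, and between 0.166% and 0.935% in non-LRC cells. Ramp1 came to between 13.5% and 63.7% in LLRCs and between 0.364% and 12.3% in non-LRC cells, with no overlap. The Ramp1 levels themselves overlapped between the groups, so this separation is tied to the lower endothelial sums of the LLRC libraries. These ratios were chosen after the values had been seen and were given no test.

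**Figure D5:**
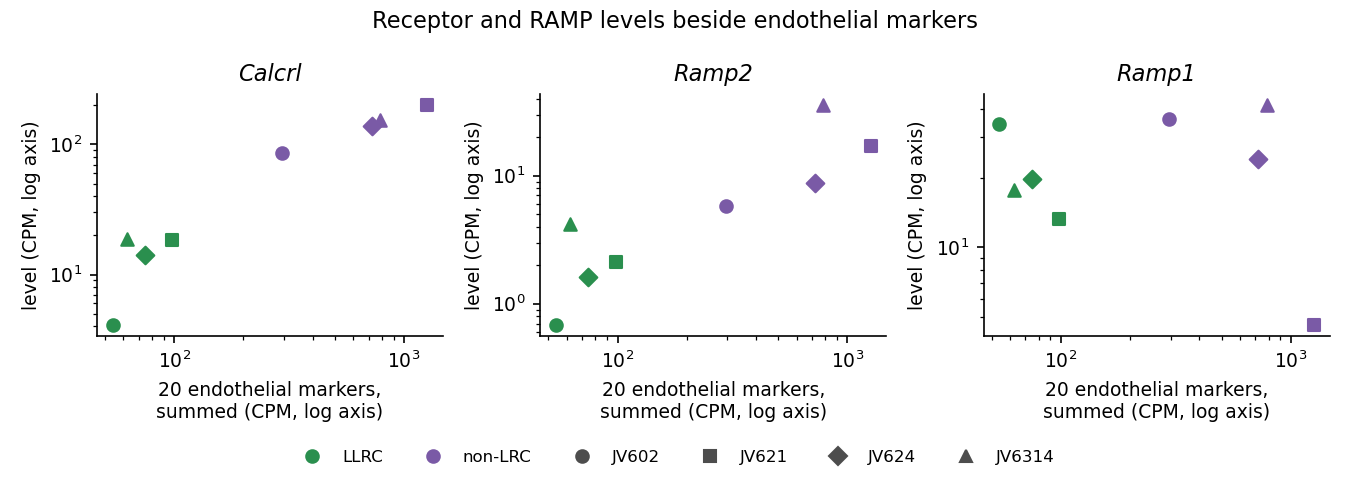
Level of Calcrl, Ramp2 and Ramp1 (CPM, log axis) against the summed level of 20 endothelial markers (CPM, log axis) in each of 8 libraries, with LLRC libraries in green, non-LRC libraries in purple and a symbol per mouse. For Calcrl and Ramp2 the group with the higher sums also has the higher levels, while within a group the order of the libraries can differ from that of the sums. Ramp1 has its lowest level of 4.59 CPM in the library with the highest sum, 1261 CPM.

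Markers of other cells were read beside these. Of 10 stellate cell and fibroblast markers 6 were tested, with a median log2 difference of -2.19 and a summed level of 271.8 to 870.8 CPM in LLRCs against 683.5 to 2730 CPM in non-LRC cells. All 10 hepatocyte markers were tested, with a median of -1.37 and sums of 2934 to 3285 CPM in LLRCs against 2146 to 6414 CPM in non-LRC cells. At an unadjusted p below 0.05, 2 stellate cell and 5 hepatocyte markers were lower in LLRCs and 0 higher. Over all genes tested the shares were 3.56% lower and 1.6% higher. Every LLRC library lay below every non-LRC library for 1 stellate cell and 0 hepatocyte markers, beside 1.91% of all genes. The 6 mesothelial markers had a median of -1.26, with sums of 398.0 to 1102 CPM over the 8 libraries. Of 8 smooth muscle markers 2 were tested, and nearly all reads of that list were of Rgs5. Of 10 leukocyte markers 4 were tested, with a median of -0.15 and summed levels of 42.1 to 76.1 CPM in LLRCs against 49.9 to 100.4 CPM in non-LRC cells. Ptprc, which encodes the CD45 that the sort selected against, went the other way, at 5, 34, 14 and 59 counts in LLRCs against 0, 0, 0 and 7, and was higher in the LLRC library of all 4 mice (log2 difference 3.27, standard error 1.42, adjusted p = 0.957 in edgeR). Cd3e and Cd79a had 0 counts in all libraries. Of the 8 acinar markers 1 was tested. The part of any of these in the values of the members was not tested.

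The genes with the most similar profile were named for each member by Pearson's r of log2(CPM + 0.5) over the 8 libraries, which share the 2 groups and the scaling and are given without a test. For Calcrl these were Fbln5 (r = 0.986), Rspo3 (0.980), Dse (0.979), Icam2 (0.975) and Flt1 (0.973). For Ramp2 they were Gpihbp1 (0.976), Dnase1l3 (0.964), Icam2 (0.957), Fcgr2b (0.955) and Thbd (0.947), with Icam2 in both lists. The nearest to Ramp3 were Rpap3 (0.982), Col4a1 (0.973), Emcn (0.947), Entpd1 (0.945) and Myct1 (0.940). Among the members, r with Calcrl was 0.920 for Ramp2, 0.849 for Ramp3, 0.192 for Adm and -0.21 for Ramp1. Among the genes closest to Ramp1 were Helq (0.980), Gm9845 (0.976), Banf1 (0.976) and Ifi35 (0.968), whose log2 differences lay between -0.24 and -0.14. Among those closest to Adm were Nr1h5 (0.958), Nol12 (0.948), Eif2b5 (0.934) and Cyp2c54 (0.934).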

How the data were processed

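RNA was extracted by the authors from sorted liver cells with a kit for small samples. The deposited file gives whole-number read counts for each gene, which the authors made with HTSeq (union mode, exons, without strand) on GRCm38.p4 with the Ensembl annotation, and reads shared by genes are left out in that mode. The aligner is not given in the sources used here. A second deposited file holds the authors' own edgeR comparison (fold changes and p-values) and was not used. Symbols and exon lengths were taken from GENCODE M21 for 46005 of 46603 rows.

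Genes passing edgeR's filterByExpr (13605) were scaled by TMM (factors 0.816 to 1.23) and tested with the quasi-likelihood test of edgeR 4.0.16 in R 4.3.3, in its legacy form, with the group as the only term and Benjamini-Hochberg adjustment over all genes at 0.05. The common biological coefficient of variation was 0.69. For single genes, an exact permutation test (two-sided, 70 assignments) was run on log2(CPM + 0.5). Differences are LLRC minus non-LRC. DESeq2 1.42.0, limma 3.58.1, other filters and scalings, the mouse as a block and left-out libraries were alternatives. Libraries were paired by the mouse their labels name. The deviations of the 2 libraries of a mouse from their group means correlated at 0.09, 0.08, 0.00 and 0.18 in JV602, JV621, JV624 and JV6314. From each list up to 6 genes were named, by mean level unless a gene passed the threshold, and for each member the 5 genes with the highest correlation. Some genes that these rules name are not reported here. The members and lists were chosen with earlier results of these data known. Lists were described by counts and medians, with no set test. The scripts were tested on simulated data.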

Additional observations from a re-analysis of the deposited data

Results flagged for a closer look

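Of 42 sets of 4 libraries examined for a value far from the others, 2 held one, where chance flags about 1 in 20. The summed level of the genes of the cyclic AMP route was 566.9 CPM in the LLRC library of JV602, far below the other 3 LLRC libraries at 725.4 to 743.4 CPM. The summed level of the pancreatic acinar markers was 1890 CPM in the non-LRC library of JV6314, far above the 5.51 to 23.5 CPM of the other non-LRC libraries.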

How the results depend on the processing

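The quasi-likelihood test called 0 genes, with 702 at an unadjusted p below 0.05. DESeq2 called 221, edgeR's exact test 154, the exact test without a filter 115, the quasi-likelihood test without a filter 11, DESeq2 with the mouse as a block 312, and the quasi-likelihood test without the non-LRC libraries of JV621 and JV6314, an alternative chosen after seeing the data, 1. With libraries left out singly or by mouse the count was 0 to 6, the 6 being without the non-LRC library of JV602. With the mouse as a block it was 0 in the quasi-likelihood test.

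Calcrl passed the threshold in DESeq2 (log2 difference -3.44), in the exact test with the filter (-3.39) and without it (-3.35), and in DESeq2 with the mouse as a block (-3.57). Ramp2 passed in DESeq2 (-3.01), the exact test (-2.95) and blocked DESeq2 (-2.95). Ramp3 passed in DESeq2 (-3.59) and the exact test (-3.47). Neither Ramp2 nor Ramp3 would have passed the filter by its LLRC libraries alone. In the other alternatives no member passed. With libraries left out, the log2 difference was -3.58 to -3.08 for Calcrl, -3.49 to -2.26 for Ramp2, -3.78 to -2.80 for Ramp3, -0.67 to 0.05 for Ramp1 and -2.77 to -0.27 for Adm. That of Ramp1 changed sign, to 0.053, without both libraries of JV6314, and Adm was not tested without both libraries of JV624. The cause of these shifts was not tested. With a pseudocount of 0.1 or 1 the exact permutation p was the same for 4 members and 0.457 to 0.486 for Adm.

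Endothelial markers called numbered 0 in the quasi-likelihood test, 13 in DESeq2, 12 in the exact test, 11 without its filter, 1 in the unfiltered quasi-likelihood test, 15 in blocked DESeq2, and 0 to 2 with libraries left out. Their median was -4.03 to -3.41 with libraries left out and -3.09 without the non-LRC libraries of JV621 and JV6314. Of the cyclic AMP genes, 1 was called in DESeq2, in the exact test with and without the filter, and in blocked DESeq2. Ramp3 and Adm rest on 0 to 50 counts per library.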
